A study of Mus musculus with 4 samples.

Results

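The 10 tubulin genes described here are 6 alpha tubulin genes (Tuba1a, Tuba1b, Tuba1c, Tuba3a, Tuba3b and Tuba4a), 3 beta tubulin genes (Tubb5, Tubb3 and Tubb6) and the gamma tubulin gene Tubg1. They were taken by symbol from a table of 23235 genes, after symbols and values had been re-paired as described under processing, and all 10 were found. Tuba3b, around which the list was put together, was chosen by its FPKM differences between deletion and control oocytes, already known to lie in opposite directions at the 2 stages, so its values are a description and support nothing.

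Alpha and beta tubulin form the heterodimer from which microtubules are built, and gamma tubulin sits in the ring complex from which new microtubules start. Vertebrates hold several alpha and beta genes, called isotypes, whose proteins are very similar and differ mainly in their tails and in the tissues that use them. The mouse oocyte has no centrioles. It stores tubulin and tubulin mRNA during growth and later builds the meiotic spindle from acentriolar organizing centres that carry gamma tubulin and pericentrin.

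Polyadenylated RNA was measured in 4 groups of mouse oocytes with 1 library of 10 oocytes each. Growing deletion oocytes (Dcaf13fl/fl;Gdf9-Cre) and growing control oocytes (Dcaf13fl/fl) were taken at about 14 days of age. Fully grown deletion oocytes and fully grown control oocytes, of the same genotypes, were taken at about 23 days of age, after 5 IU of PMSG, pregnant mare serum gonadotropin, given 48 h earlier. All mice were on a background labelled C57B6 and all carried the floxed Dcaf13 alleles. The Gdf9-Cre transgene drives Cre recombinase from the Gdf9 promoter, which is active in oocytes, so somatic cells of the follicle keep the gene. Stage, age and PMSG cannot be told apart. There are no replicates, so each value is that of 1 library, no test was run and no error can be given.

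Values are FPKM, which are scaled to transcript length, so that levels of different genes can be set side by side. Sequencing depth is unknown. Dcaf13, which encodes a nucleolar protein and CRL4 substrate receptor, stood at 38.9 FPKM in growing deletion and 96.1 in growing control oocytes, and at 64.0 in fully grown deletion and 160.2 in fully grown control oocytes. That is 40.5% of the growing control value in growing deletion oocytes and 39.95% of the fully grown control value in fully grown deletion oocytes. Each of the 19 oocyte markers looked at reached 1 FPKM in some library, with H1foo, Dppa3 and Zp3 the most abundant by their mean. None was past the size rule, defined next, between deletion and control. Sohlh1 could not be called, being under 5 FPKM in each library. It stood at 2.29 FPKM in growing deletion and 0.211 in growing control oocytes, a difference of 1.44. Over growth Ddx4 was lower in the deletion (-2.18) and in controls (-1.30), and Figla in the deletion (-1.17). A difference is given on the scale log2(FPKM + 1), and it is called past the size rule at 1 or more in either direction, provided that the gene reached 5 FPKM in either library of the comparison. That scale understates the change of low genes. The values of single genes rest on the re-pairing, which is inferred from the order of the rows. In the table as deposited, the symbol Tuba3b stands beside 0 in all 4 libraries, and the values given here for Tuba3b stand beside the symbol Tuba1c.

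The alpha tubulin RNA of these oocytes came mostly from Tuba3a and Tuba4a. Tuba3a was the most abundant alpha gene, at 204 FPKM in growing deletion and 232 in growing control oocytes, and at 280 in fully grown deletion and 245 in fully grown control oocytes. Tuba4a, whose protein is made without the C-terminal tyrosine of most alpha tubulins, lay between 139 and 166 FPKM in the 4 libraries. Tuba1c lay between 49.5 and 100.3 FPKM, Tuba1b between 31.4 and 62.0, and Tuba3b between 13.0 and 51.6. Tuba1a, the main alpha isotype of developing neurons, lay between 0.669 and 1.75 FPKM and never reached the minimum of 5, so 9 of the 10 members entered each comparison.

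Among the beta members, Tubb6, a broadly expressed isotype, was the most abundant, between 288 and 414 FPKM. Tubb3, known as the neuronal isotype, lay between 218 and 287 FPKM, and Tubb5, a general isotype of dividing cells, between 81.2 and 141. Tubg1 lay between 24.3 and 40.6 FPKM. The ranges of Tuba3a and Tubb3 overlapped, as did those of Tuba4a with Tubb5, Tubb5 with Tuba1c, Tuba1c with Tuba1b, and Tuba1b, Tubg1 and Tuba3b with each other. The range of Tubb6 lay above that of Tubb3 by a small margin, from 288.3 FPKM in its lowest library against 286.8 in the highest library of Tubb3. In mm9, Tuba4a lies on chromosome 1 (75211549 to 75215828, minus strand), Tubb5 on chromosome 17 (35970865 to 35975246, minus strand), Tubb3 on chromosome 8 (125935464 to 125945910, plus strand), Tubg1 on chromosome 11 (100981445 to 100987733, plus strand) and Tubb6 on chromosome 18. Tubb6 ranked between 299 and 441 among all genes, while Tuba3b ranked between 2055 and 5117.

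**Figure D1:**
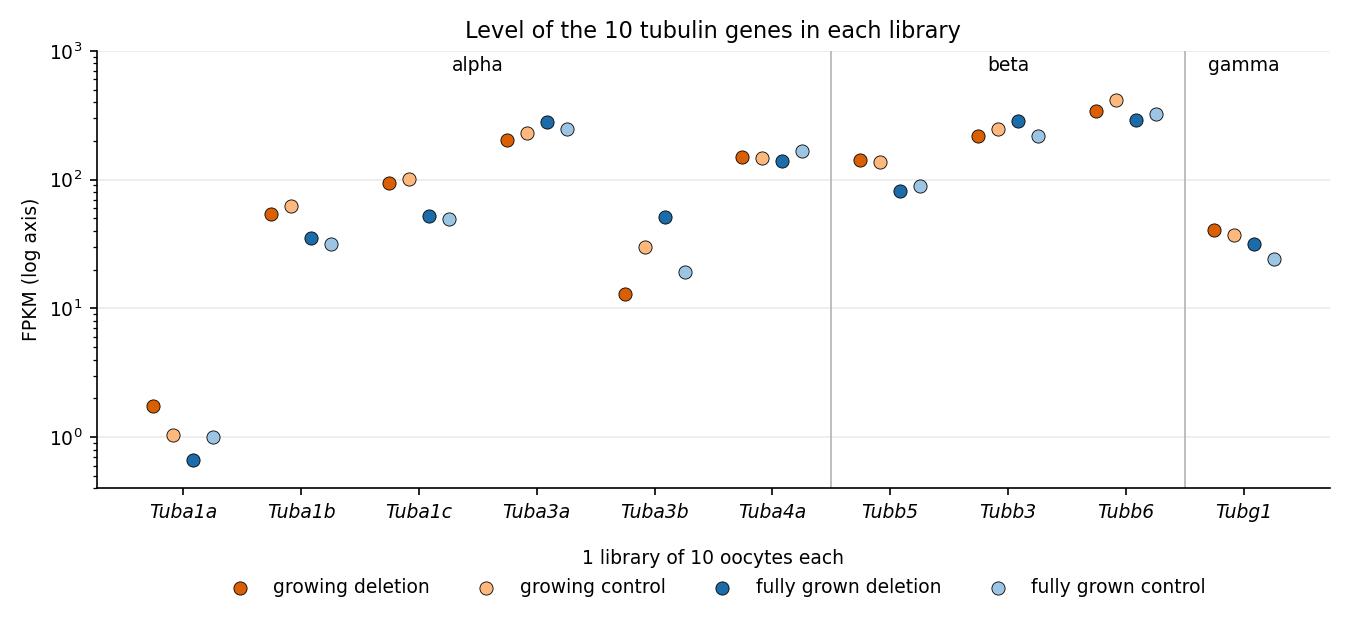
FPKM of each of the 10 tubulin genes (log axis), with 1 point per library and the genes ordered by family. Tuba3b has the widest spread of the members above 5 FPKM, with 13.0 and 30.2 FPKM in growing deletion and growing control oocytes and 51.6 and 19.1 FPKM in fully grown deletion and fully grown control oocytes.

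The rest of the family gives these levels their place. Of the 10 other tubulin genes listed, Tubb4b was at 1271 FPKM in growing deletion and 1062 in growing control oocytes, and at 1169 in fully grown deletion and 1002 in fully grown control oocytes, above every member. It made up between 48.8% and 56.2% of all beta tubulin FPKM. Tubb2a lay between 243 and 304 FPKM. Tubg2, the second gamma tubulin gene, lay between 50.8 and 101 FPKM and held between 67.6% and 71.4% of gamma tubulin FPKM, so Tubg1 was the smaller part in each library. Tubal3 (7.61 to 18.9 FPKM), Tubb2b (9.40 to 11.9), Tubd1 (27.7 to 36.7) and Tube1 (10.7 to 13.5), the last pair being delta and epsilon tubulin of centrioles, were lower. Tuba8 and the platelet isotype gene Tubb1 were listed at 0 in all 4 libraries, and Tubb4a, an isotype of the nervous system, was at 0.235 FPKM or less. Summed FPKM of the 8 beta genes was 4.31 times that of the 8 alpha genes in growing deletion and 3.71 times in growing control oocytes, and 3.66 times in fully grown deletion and 3.54 times in fully grown control oocytes.

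Tuba3a (chromosome 6, minus strand, 125228292 to 125236060, mm9) and Tuba3b (chromosome 6, plus strand, 145564483 to 145569997, mm9) are a close pair. Over 1353 coding bases of their GENCODE M21 transcripts 1312 were identical, or 96.97%. The 41 bases that differ lie in 41 of 451 codons, and none of them changes the encoded residue, so both genes encode the same protein. The stretch of 90 coding bases with most differences, 11, runs from coding base 274 to coding base 363. It is shown as the coding stretch where the pair differs most, with the differing bases in capitals.
Tuba3a: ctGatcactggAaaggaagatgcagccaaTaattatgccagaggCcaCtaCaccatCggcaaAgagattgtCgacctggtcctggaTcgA
Tuba3b: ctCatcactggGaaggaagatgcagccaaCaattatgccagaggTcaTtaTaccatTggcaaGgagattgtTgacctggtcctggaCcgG
Of all stretches of 50 bases in the Tuba3b transcript 27.4% also occurred in Tuba3a, and 10.4% of stretches of 100 bases did. Neither the read length nor the handling of reads with several matches is known here, so the split of reads between the pair is uncertain, and their sum is given as well.

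Tuba3b stood at 13.0 FPKM in growing deletion oocytes, against 30.2 FPKM in growing control oocytes. At the later stage it stood at 51.6 FPKM in fully grown deletion oocytes, against 19.1 FPKM in fully grown control oocytes. The growing deletion library was thus the lowest of the 4 and the fully grown deletion library the highest, with both control libraries between them. Each library pools 10 oocytes, so a lower level in every oocyte and a strong loss in some of them cannot be told apart. The differences were -1.15 and 1.39 in log2(FPKM + 1), and the second minus the first was 2.54. Tuba3b was the only gene in the table that was lower by the size rule in growing deletion and higher in fully grown deletion oocytes. The reverse pattern was also found for 1 gene. In the order of differences Tuba3b was number 135 from the lowest among 8010 genes in the growing comparison. It was number 27 from the highest among 7413 genes in the fully grown comparison. Since Tuba3b was chosen by these differences, nothing is read from the count or the ranks. Under a pseudocount of 5 the growing difference was -0.96 and so missed the size rule.

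Tuba3a lay on the same sides at a smaller size. Its difference was -0.18 between growing deletion and growing control oocytes. Between fully grown deletion and fully grown control oocytes it was 0.19, and neither was past the size rule. Without the trend with GC content and length these differences were -0.35 and 0.02. Tuba3b made up 5.996% of the summed FPKM of the pair in growing deletion and 11.5% in growing control oocytes, and 15.6% in fully grown deletion and 7.21% in fully grown control oocytes. The sum of the pair was 217 FPKM in growing deletion and 262 in growing control oocytes, a difference of -0.27. In fully grown oocytes it was 331 FPKM in the deletion and 264 in the control, a difference of 0.33. Neither difference of the summed RNA was past the size rule.

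The promoters of the pair are shown to place the copies beside each other upstream of their coding part, as 250 bases before to 50 after the start in RefSeq (GRCm38.p6). Capitals mark CCAAT or its reverse complement ATTGG, the only motif searched.
Tuba3a, minus strand of chr6:125286032-125286331: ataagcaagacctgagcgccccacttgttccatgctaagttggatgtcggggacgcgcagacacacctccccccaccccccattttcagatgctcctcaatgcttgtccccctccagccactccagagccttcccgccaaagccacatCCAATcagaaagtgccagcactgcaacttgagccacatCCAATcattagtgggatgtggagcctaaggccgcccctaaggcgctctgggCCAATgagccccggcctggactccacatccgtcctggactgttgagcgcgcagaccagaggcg
Tuba3b, plus strand of chr6:145615713-145616012: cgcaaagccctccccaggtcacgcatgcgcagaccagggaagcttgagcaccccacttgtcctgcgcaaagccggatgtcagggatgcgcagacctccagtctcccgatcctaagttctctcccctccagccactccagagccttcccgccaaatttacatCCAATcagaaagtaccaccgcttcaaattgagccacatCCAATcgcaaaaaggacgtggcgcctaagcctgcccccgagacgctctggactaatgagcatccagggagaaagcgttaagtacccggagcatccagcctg
The promoters were identical at 196 of 266 aligned bases (73.7%), against 96.97% in the coding part. Bases without an aligned partner were left out. The promoters aligned over 266 of their 300 bases and the coding parts over all 1353, so the 2 percentages are not strictly alike. Tuba3a held 3 matches and Tuba3b 2. At least 1 match was present in 37.4% of the 32851 promoters in the table, and in 6 of the 8 members with an entry. A match is a description of letters and not of a bound site.

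**Figure D2:**
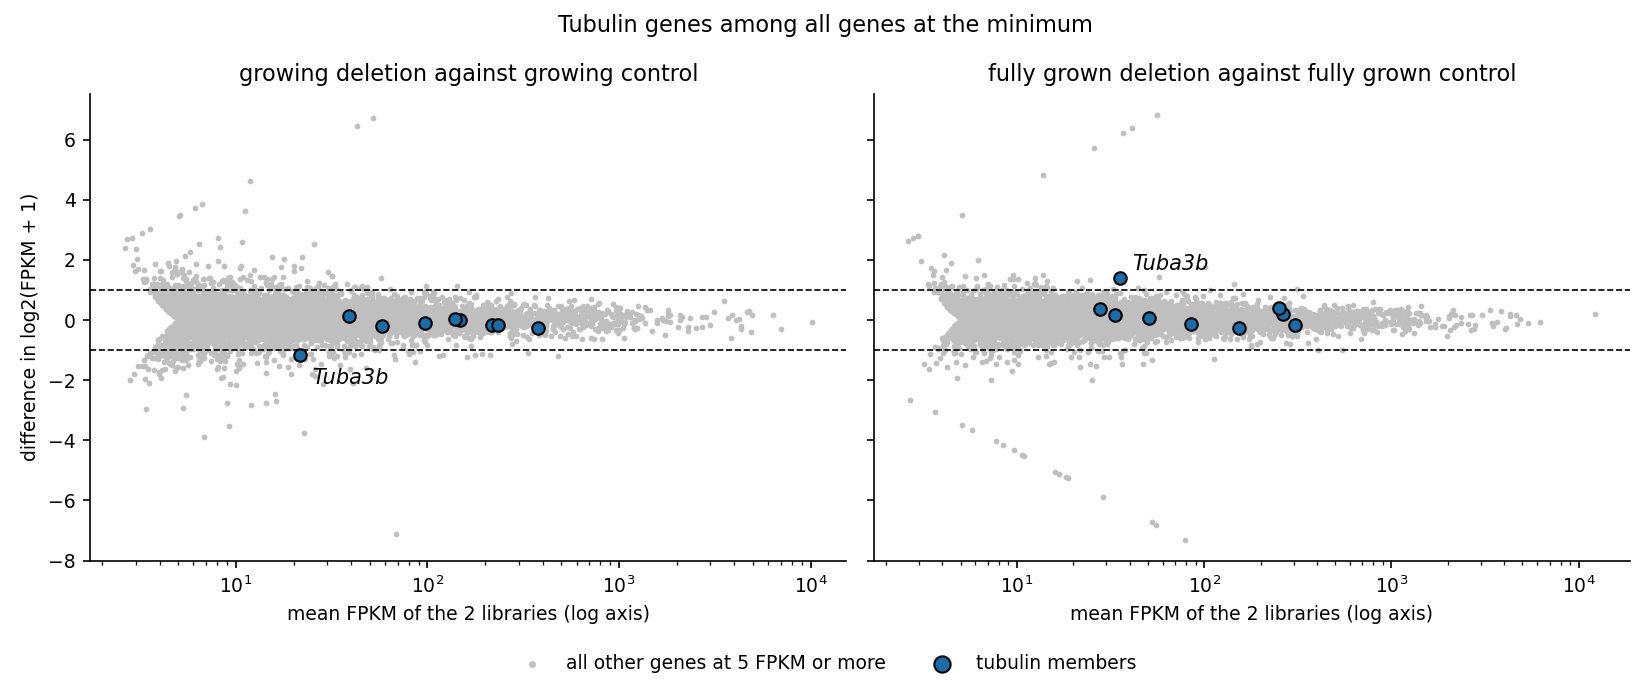
Difference in log2(FPKM + 1) against mean FPKM (log axis) for all genes that reached 5 FPKM in either library, for deletion against control in growing (left) and fully grown (right) oocytes, with dashed lines at the size rule. Tuba3b lies at -1.15 on the left and 1.39 on the right, while the other members lie between -0.28 and 0.13 on the left and between -0.26 and 0.39 on the right.

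Markers of follicle cells are given beside Tuba3b because some were uneven between the libraries. The 12 granulosa cell markers summed to 17.8 FPKM in growing deletion and 35.2 in growing control oocytes, and to 29.6 in fully grown deletion and 27.9 in fully grown control oocytes. Of the 12 markers 6 reached 1 FPKM in some library. Inha, which encodes the inhibin alpha subunit, stood at 2.16 FPKM in growing deletion and 6.53 in growing control oocytes, and at 4.99 in fully grown deletion and 2.40 in fully grown control oocytes. It was lower by the size rule in growing deletion oocytes (-1.25), and like Tuba3b it lay below control at the growing and above control at the fully grown stage, where both libraries were under the minimum of 5 FPKM (0.82). Cyp19a1, the aromatase gene, stood at 7.75 FPKM in growing deletion and 17.7 in growing control oocytes, and at 16.8 in fully grown deletion and 19.0 in fully grown control oocytes. It too was lower by the rule at the growing stage (-1.10), but not at the fully grown stage (-0.16). Over growth in the deletion Cyp19a1 was higher by the rule (1.03) and in controls its difference was 0.09. Nr5a2, also at the minimum in the growing comparison, stood at 4.88 FPKM in growing deletion and 5.87 in growing control oocytes. Its difference of -0.22 was not past the rule. At the fully grown stage Nr5a2 was under the minimum, with a difference of -0.08. The defining markers Foxl2 and Amh were at 0.367 FPKM or less in each library, and both were listed at 0 in fully grown control oocytes, Amh also in fully grown deletion oocytes. The median of the 12 markers was 0.322 FPKM in growing deletion and 0.568 in growing control oocytes. In fully grown oocytes it was 0.725 in the deletion and 0.280 in the control. Like Inha, Foxl2, Amhr2, Inhba, Fshr, Hsd17b1 and Wt1 were below control at the growing and above it at the fully grown stage. Apart from Inha these lay between 0 and 1.25 FPKM. Kitl, Cyp19a1 and Nr5a2 were below control at both stages, and Fst above it at both. The part of granulosa cell RNA in the result was not tested. The 9 markers of theca and stroma summed to 1.53 FPKM or less per library, the 5 immune markers to 3.64 or less and the 4 erythroid markers to 0.128 or less. The 5 endothelial markers summed to between 13.3 and 20.8 FPKM, of which Pecam1 made up between 11.6 and 18.7, while Cdh5 and Emcn were at 0 in all 4 libraries.

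In growing deletion against growing control oocytes, Tuba3b was the only member past the size rule among the 9 at the minimum, where 5.13% of all 8010 genes were past it, 2.62% higher and 2.51% lower. Since Tuba3b was chosen for this contrast, nothing is read from that count. Of the 9 members 3 were above and 6 below their control value, beside 58.5% of all 8010 genes above control. The members had a median difference of -0.17, beside a median of 0.080 over all genes at the minimum. Tubb3, the member at that median, was at -0.41 without the trend with GC content and length. Tubb6 stood at 341 FPKM in growing deletion and 414 in growing control oocytes (-0.28), the largest difference of a beta member. Tuba1b had 53.9 FPKM in growing deletion and 62.0 in growing control oocytes (-0.20), and Tubb3 had 220 FPKM in growing deletion and 247 in growing control oocytes (-0.17). Tuba1c, Tuba4a, Tubb5 and Tubg1 differed by between -0.09 and 0.13. Among these, Tuba4a and Tubb5 lay below 0 on median-ratio rescaling (-0.03 and -0.01), and Tuba4a and Tubg1 without the trend with GC content and length (-0.15 and -0.06). All of these differences were within the middle 90% of genes, which ran from -0.70 to 0.78.

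In fully grown deletion against fully grown control oocytes, Tuba3b was again the only member past the size rule, beside 2.17% of all 7413 genes (1.08% higher and 1.09% lower), and again nothing is read from it. Here 6 of the 9 members were above and 3 below control, beside 55.0% of all 7413 genes above control. The members had a median of 0.16 beside 0.037 over all genes. Tuba1b, the member at that median, was at 0.01 without the trend with GC content and length. Over all genes at the minimum, differences correlated with GC content, with a Spearman coefficient of 0.36 in the growing and 0.40 in the fully grown comparison. The members held 51.3% to 58.1% GC, beside a median of 50.4% over genes at the minimum in the growing comparison. Tubb3 stood at 287 FPKM in fully grown deletion and 218 in fully grown control oocytes, a difference of 0.39. Tubg1, which starts new microtubules in the ring complex, stood at 31.4 FPKM in fully grown deletion and 24.3 in fully grown control oocytes (0.35). Its paralog Tubg2 stood at 70.6 FPKM in fully grown deletion and 50.8 in fully grown control oocytes (0.47). The growing values were 40.6 FPKM in deletion and 37.0 in control oocytes for Tubg1 (0.13), and 101 and 83.4 FPKM in deletion and control oocytes for Tubg2 (0.28). Tubb6 stood at 288 FPKM in fully grown deletion and 320 in fully grown control oocytes (-0.15). Tuba4a, at 139 FPKM in fully grown deletion and 166 in fully grown control oocytes, had the lowest difference of a member (-0.26). Apart from Tuba3b, the members again lay within the middle 90% of genes, from -0.58 to 0.63.

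Besides Tuba3b, 4 of the 8 other members at the minimum were below control in growing and above it in fully grown oocytes. They were Tuba1b, Tuba1c, Tuba3a and Tubb3. The share of all genes with this order of signs is not given here, so nothing is read from that count. Without the trend with GC content and length, the fully grown differences were 0.01 for Tuba1b, -0.11 for Tuba1c, 0.02 for Tuba3a and 0.17 for Tubb3. None of the 8 differences of these 4 genes was past the size rule. The fully grown minus the growing difference was 0.36 for Tuba1b, 0.16 for Tuba1c, 0.37 for Tuba3a and 0.56 for Tubb3, against 2.54 for Tuba3b. Tuba4a and Tubb5 had the reverse signs, with -0.27 and -0.17, although their growing values were near 0 and turned sign on median-ratio rescaling. Tubb6 was below control at both stages. Tubg1 was above control at both, except at the growing stage without the trend with GC content and length. Without replicates these differences between stages could not be tested.

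**Figure D3:**
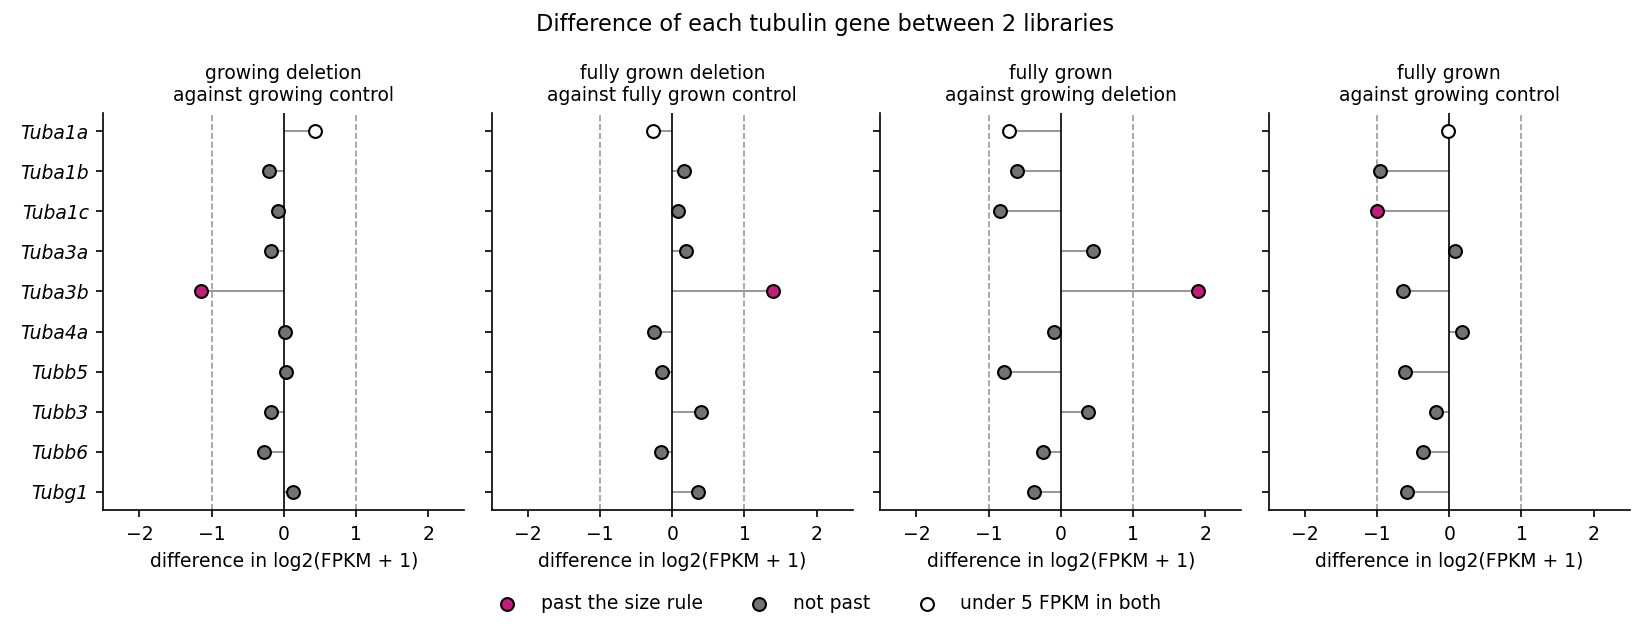
Difference in log2(FPKM + 1) of each tubulin gene in the 4 comparisons, with dashed lines at -1 and 1, filled pink points for genes past the size rule and open points for Tuba1a, which was under 5 FPKM. Tuba3b is past the rule in 3 comparisons, at -1.15, 1.39 and 1.91, and Tuba1c in the last, at -1.01.

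Growth was compared between fully grown and growing oocytes within each genotype. These comparisons share a library each with both deletion comparisons, so their values are given side by side and are not independent. Tuba3b stood at 51.6 FPKM in fully grown deletion and 13.0 in growing deletion oocytes, a difference of 1.91, which was number 49 from the highest among 7957 genes. In controls it stood at 19.1 FPKM in fully grown and 30.2 in growing oocytes, a difference of -0.64, which did not pass the size rule. The granulosa marker Cyp19a1 differed by 1.03 in the deletion and 0.09 in controls, and Inha by 0.92 in the deletion, where it was under the minimum, and -1.15 in controls. The part of granulosa cell RNA in this difference was not tested. In the deletion comparison Tuba3b was the only member past the rule, beside 11.4% of all genes in either direction, 2.7% higher and 8.75% lower. Since Tuba3b was chosen by values of these same libraries, nothing is read from its rank or from that count. In the control comparison Tuba1c was the only member past the rule, beside 4.18% of all genes in either direction, 1.11% higher and 3.07% lower.

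Tuba1b and Tuba1c, general isotypes used in many tissues, had differences below 0 over growth in both genotypes. Tuba1c stood at 52.1 FPKM in fully grown deletion and 94.5 in growing deletion oocytes (-0.85), and at 49.5 FPKM in fully grown control and 100.3 in growing control oocytes (-1.01). The control difference passed the size rule narrowly, and it did not pass under median-ratio rescaling (-0.97), a pseudocount of 5 (-0.95) or without the trend with GC content and length (-0.75). Tuba1b stood at 35.2 FPKM in fully grown deletion and 53.9 in growing deletion oocytes (-0.60), and at 31.4 FPKM in fully grown control and 62.0 in growing control oocytes (-0.96). For either gene both fully grown libraries were below both growing libraries, with no overlap. Tubb5 had the same order, with 81.2 FPKM in fully grown deletion and 141 in growing deletion oocytes (-0.79), and 89.3 FPKM in fully grown control and 137 in growing control oocytes (-0.61). So had Tubg1, with differences of -0.36 in the deletion and -0.58 in controls, and Tubb6, with -0.24 and -0.37. Neither Tuba1b nor these last 3 genes were past the size rule. Over all 8235 genes that reached 5 FPKM in some library, 30.8% had both fully grown libraries below both growing libraries and 21.5% had both above, beside 5 and 1 of the 9 members, so such an order was common in the table. Tuba3a (0.45 in the deletion and 0.08 in controls) lay above its growing value in both genotypes, while Tuba4a (-0.10 and 0.17) and Tubb3 (0.38 and -0.18) differed in sign. Without the trend with GC content and length, Tubb3 in controls was at 0.05 and Tubb6 in the deletion at 0.02. Over the 9 members the median was -0.24 in the deletion and -0.58 in controls, beside -0.071 and -0.058 over all genes at the minimum. The members at these medians were Tubb6 in the deletion and Tubg1 in controls. Without the trend with GC content and length they were at 0.02 and -0.31.

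The 3 Tuba1 genes lie on chromosome 15 (mm9), Tuba1b at 98761862 to 98764821 and Tuba1a at 98780278 to 98783932 on the minus strand and Tuba1c at 98860322 to 98868536 on the plus strand. Their coding parts were identical at 97.6% to 98.4% of aligned bases. Of all 50-base stretches, 52.0% in Tuba1a, 64.6% in Tuba1b and 59.8% in Tuba1c also occurred in another tubulin transcript, so the values of single Tuba1 genes are uncertain. Their sum was 88.0 FPKM in fully grown deletion and 150 in growing deletion oocytes (-0.76), and 81.9 FPKM in fully grown control and 163 in growing control oocytes (-0.99). No 50-base stretch of Tuba4a, Tubb3 or Tubb6 occurred in another tubulin transcript compared. For Tubg1, 13.9% of stretches occurred in Tubg2.

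The makeup of alpha tubulin RNA differed between stages in both genotypes. The Tuba1 genes made up 15.4% of alpha tubulin FPKM in fully grown deletion and 28.6% in growing deletion oocytes, and 15.4% in fully grown control and 27.8% in growing control oocytes. Tuba3a and Tuba3b together made up 57.9% in fully grown deletion and 41.5% in growing deletion oocytes, and 49.7% in fully grown control and 44.7% in growing control oocytes. Summed FPKM of all 8 alpha genes was 572 in fully grown deletion and 524 in growing deletion oocytes, and 531 in fully grown control and 587 in growing control oocytes. FPKM are relative to each library's total, so tubulin RNA per oocyte was not measured.

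**Figure D4:**
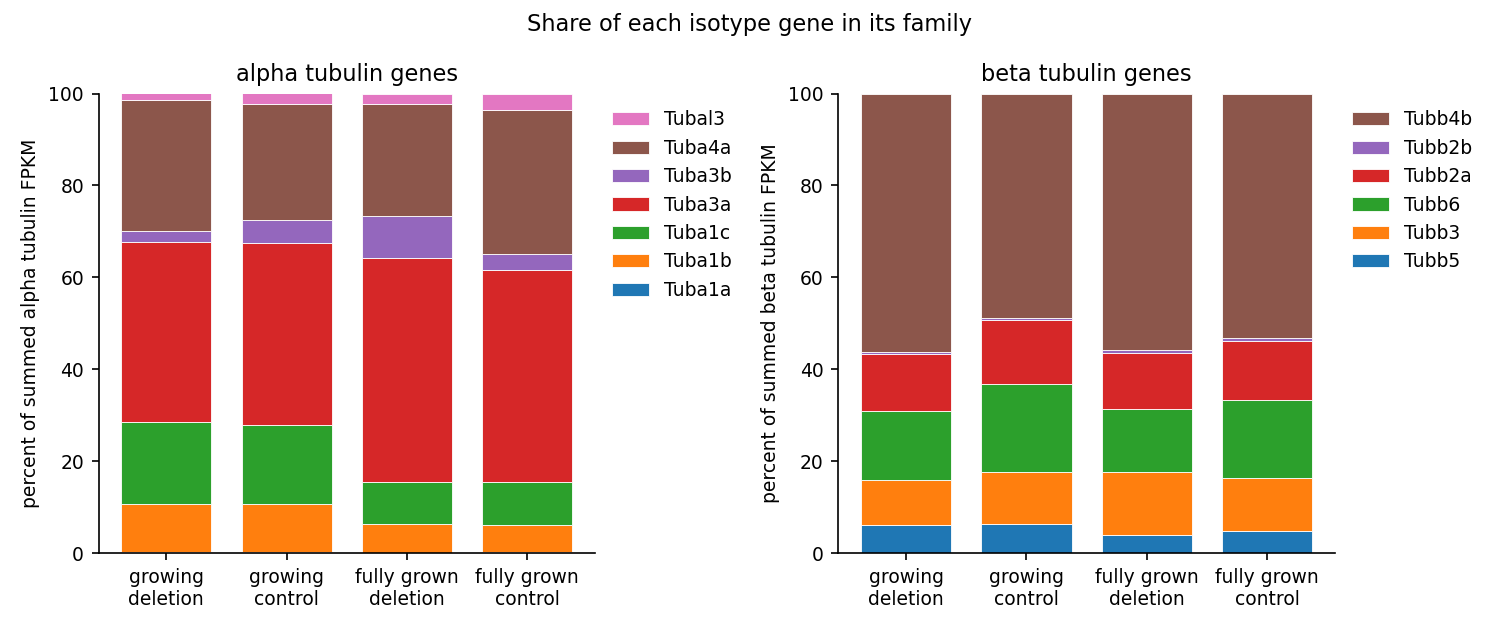
Percent of summed alpha (left) and beta (right) tubulin FPKM held by each gene in each library, with genes under 0.1% in every library left out. Tuba3b holds 2.49% of alpha tubulin FPKM in growing deletion, 5.14% in growing control, 9.02% in fully grown deletion and 3.59% in fully grown control oocytes, and Tubb4b is the largest part of beta tubulin in each library.

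Tubulin mRNAs are known from human cells to be destabilized when free tubulin is in excess. TTC5 there reads the first residues of tubulin chains as they leave the ribosome and acts through SCAPER and the CCR4-NOT deadenylase. The first 30 coding bases of the members are shown because that signal lies in the first 4 codons, in capitals. They are from GENCODE M21 transcripts, and the sequence of Tubb6 is not printed.
Tuba1a: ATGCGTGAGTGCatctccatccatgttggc
Tuba1b: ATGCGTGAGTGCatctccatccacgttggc
Tuba1c: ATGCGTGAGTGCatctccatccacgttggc
Tuba3a: ATGCGTGAGTGTatctctatccacgtgggg
Tuba3b: ATGCGTGAGTGTatctctatccacgtgggg
Tuba4a: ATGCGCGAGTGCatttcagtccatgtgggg
Tubb5: ATGAGGGAAATCgtgcacatccaggccgga
Tubb3: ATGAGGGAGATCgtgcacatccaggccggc
Tubg1: ATGCCGAGAGAAatcatcaccctacagttg
The first 4 codons were identical in Tuba1a, Tuba1b and Tuba1c, and identical in Tuba3a and Tuba3b. Those of Tubg1 differ from both the alpha and the beta form. Tuba3b and Tuba3a have the same 30 bases. Of the 3 listed genes of this pathway none was past the size rule in either deletion comparison. Ttc5 stood at 8.46 FPKM in fully grown deletion and 19.8 in growing deletion oocytes, lower by the size rule (-1.14) except under a pseudocount of 5, and at 13.0 FPKM in fully grown control and 21.1 in growing control oocytes (-0.65). Scaper lay between 9.87 and 13.2 FPKM, and D1Bwg0212e, the older symbol of Cnot11, between 38.1 and 55.0.

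Folding of new tubulin passes through prefoldin, the CCT chaperonin and the tubulin cofactors. Of the 9 CCT genes 8 were at the minimum in each comparison. Cct6a, which encodes a CCT subunit, was higher by the size rule in growing deletion oocytes, at 40.4 FPKM against 17.4 in growing control oocytes (1.17). It was at 8.66 FPKM in fully grown deletion and 6.40 in fully grown control oocytes, lower than at the growing stage by the rule in both genotypes (-2.10 and -1.32), in controls not under a pseudocount of 5. Cct4, another subunit, was lower over growth in the deletion, with 18.8 FPKM in fully grown and 84.3 in growing oocytes (-2.11), and stood at 31.5 FPKM in fully grown control and 58.7 in growing control oocytes (-0.88). The 3 most abundant, Cct5 (369 to 434 FPKM), Cct3 (157 to 192) and Cct2 (147 to 175), were past the rule in no comparison. None of the 6 prefoldin genes was past it either, with Pfdn4 between 975 and 1366 FPKM, Pfdn5 between 671 and 838 and Pfdn2 between 276 and 306. Among the 7 cofactor genes, Tbcc, whose product helps release folded tubulin, was lower over growth in the deletion, with 18.04 FPKM in fully grown and 40.7 in growing oocytes (-1.13), a call that did not hold under a pseudocount of 5 or without the trend with GC content and length. Tbca, which binds beta tubulin, lay between 410 and 512 FPKM, Arl2 between 249 and 298 and Tbcb, which binds alpha tubulin, between 157 and 188.

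Of 11 genes of the gamma tubulin ring complex and its anchors, 7 or 8 were at the minimum in each comparison. None of these was past the size rule in the 4 comparisons, beside 2.17% to 11.4% of all genes, so nothing is read from that count. Without the trend with GC content and length 1 was higher over growth in the deletion. Neither Tubg1 nor Tubg2 was past the rule in any of the 4 comparisons. Pcnt, which encodes pericentrin, lay between 42.02 and 51.9 FPKM, the targeting subunit gene Nedd1 between 30.3 and 38.7, and Mzt2 between 25.4 and 49.5.

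Of 26 genes whose products add or remove modifications of tubulin, between 10 and 12 were at the minimum. Agtpbp1, a deglutamylase gene, was higher by the rule over growth in the deletion, with 31.2 FPKM in fully grown and 13.9 in growing oocytes (1.11), and stood at 19.0 FPKM in fully grown control and 17.2 in growing control oocytes (0.14). Its difference between fully grown deletion and fully grown control oocytes was 0.69. Ttll12, of the tubulin tyrosine ligase-like family, stood at 5.34 FPKM in growing deletion oocytes, against 1.96 in growing control oocytes (1.10) and 1.09 in fully grown deletion oocytes (-1.60 for fully grown against growing), both past the rule. Under a pseudocount of 5 none of these modifier genes was past it, and without the trend with GC content and length none was higher. Ccdc23, the older symbol of Svbp, whose product partners the vasohibin detyrosinating enzymes, lay between 92.6 and 117 FPKM, and the glutamylase gene Ttll11 between 46.4 and 53.9.

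Of 34 genes of microtubule dynamics, 25 or 26 were at the minimum and only Mtap1s, a microtubule-associated protein gene, was past the rule. It stood at 29.6 FPKM in growing deletion and 13.1 in growing control oocytes (1.12), and at 12.5 FPKM in fully grown deletion and 5.97 in fully grown control oocytes (0.96, not past). Over growth it was lower in the deletion (-1.18) and in controls (-1.02). None of the list was past the rule in these 3 comparisons under a pseudocount of 5, and none was lower over growth in controls under median-ratio rescaling. Tacc3, a spindle protein gene, lay between 554 and 678 FPKM, Stmn1, which encodes the tubulin-binding protein stathmin, between 121 and 130, and Kif2c, a depolymerizing kinesin gene, between 64.1 and 103. Median differences of these lists between deletion and control lay between -0.09 and 0.26 in growing and between -0.01 and 0.13 in fully grown oocytes.

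The genes with a pattern most like that of Tuba3b were sought among the 8235 genes that reached 5 FPKM in some library. Likeness was the Euclidean distance between values of log2(FPKM + 1), each centred on its own mean over the 4 libraries. The 5 closest were 4930428E23Rik at 0.41, LOC100504703 and 1100001G20Rik at 0.61 each, and Cldn10, a claudin gene, and Gm8579 at 0.62 each. 1100001G20Rik, for example, stood at 3.04 FPKM in growing deletion and 8.54 in growing control oocytes, and at 13.5 in fully grown deletion and 8.39 in fully grown control oocytes. All 5 were below Tuba3b in each library, at 13.5 FPKM or less. The closest, 4930428E23Rik, reached 5 FPKM only in fully grown deletion oocytes (5.04), the library where Tuba3b was highest. It lay between 0.54 and 1.88 FPKM in the other libraries. Cldn10 reached 5 FPKM only in growing control oocytes (5.275). Such low values make the likeness uncertain. The distance over 4 libraries is a description. Among the members Tubb3 (1.12) and Tuba3a (1.15) were the closest. Set among the genes outside the members they would be number 395 and number 496, so many other genes were closer.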

How the data were processed

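Polyadenylated RNA of 4 oocyte libraries was sequenced, 1 per group. The authors deposited FPKM per gene, made with TopHat2 2.0.11, Bowtie2 2.1.0 and Cufflinks 2.2.1 on mm9, per the submitters' processing notes. FPKM are relative to a library's total, and no counts or depth are known, so no interval can be given. In the deposited table the symbols run in alphabetical order without regard to case or hyphens, while the values fit symbols in byte order. Symbols were re-paired accordingly: 4113 rows kept their symbol, 19122 took another, and tubulin symbols moved by 2 rows. Near the tubulins, low values correlated with transcript length (r = -0.19 over 114 genes) at this pairing. At the other row shifts from -4 to 4, r lay between -0.086 and 0.017. It was 0.001 at the shift of 2 rows at which the tubulin symbols were deposited. This check is local and the correlation weak. Differences are in log2(FPKM + 1), with the size rule of 1 and a minimum of 5 FPKM. Named genes were all members, Dcaf13, other tubulins at 5 FPKM or more, in each further gene list those past the rule and the 3 most abundant, and the genes most like Tuba3b. Tubulins near 0 and the markers of other cell types given singly were named after their values were seen. Members and lists were chosen with earlier results of these data known. Sequences came from GENCODE M21 and RefSeq. Python 3.11.15 and pandas 2.3.3 were used. The size rule and the removal of the trend with GC content and length were tested on simulated data. The re-pairing was not tested in that way.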

Additional observations from a re-analysis of the deposited data

Results flagged for a closer look

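The difference of Tuba3b between deletion and control oocytes was 1.39 in fully grown and -1.15 in growing oocytes, which is 2.54 apart in log2(FPKM + 1). It stands out because the deletion library lay above control at one stage and below it at the other. Since Tuba3b was chosen by these opposite directions, nothing is read from them. The same 4 values give 1.91 for fully grown against growing deletion oocytes and -0.64 for fully grown against growing control oocytes, again 2.54 apart.

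Inha, the inhibin alpha gene of granulosa cells, also had opposite directions, although it was under the minimum of 5 FPKM in both fully grown libraries and in both deletion libraries. Its difference was 0.82 in fully grown and -1.25 in growing oocytes, 2.07 apart, and over growth it was 0.92 in deletion and -1.15 in control oocytes, again 2.07 apart. With 1 library per group, none of these differences between stages or genotypes was tested.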

How the results depend on the processing

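With a pseudocount of 5, 57 genes were higher and 66 lower in growing deletion against growing control oocytes (210 and 201 with a pseudocount of 1), and 23 higher and 39 lower in fully grown deletion against fully grown control oocytes (80 and 81). Over growth the counts were 99 higher and 267 lower in the deletion (215 and 696), and 53 higher and 53 lower in controls (85 and 235). With a minimum of 1 FPKM, and likewise with no minimum, the counts were 370 and 330, 143 and 133, 355 and 1101, and 133 and 425, in the same order of comparisons.

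Among the members, 236 of 240 values kept their side of the size rule under the alternatives other than the deposited pairing, and 4 lost the call. This count says little about stability. A lower minimum could not change members already at 5 FPKM, so those outcomes were fixed beforehand. Most values were not past the rule to begin with, and only Tuba3b and Tuba1c held calls that could be lost. Of the values that were not past the rule, 7 changed sign with median-ratio rescaling or without the trend with GC content and length. With a pseudocount of 5, 0 members were lower in growing deletion oocytes, Tuba3b then being at -0.96. Over growth in controls 0 members were lower under any of 3 settings, namely median-ratio rescaling, a pseudocount of 5 and without the trend with GC content and length. The difference of Tuba3b between stages was 2.197 with a pseudocount of 5 and 2.64 with one of 0.1.

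With the deposited pairing of symbols and values, the row named Tuba3b is at 0, and the values -1.15, 1.39 and 1.91 belong to the row named Tuba1c. The sum of Tuba3a and Tuba3b then differed by 0.015 in growing and -0.26 in fully grown deletion against control oocytes and by -0.10 over growth in the deletion. The sum of the beta members differed by 0.25 in growing deletion against growing control oocytes and by -0.080 over growth in controls. This follows from the other rows being read.

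No paired analysis was possible because each group holds 1 library, and no library was left out for that reason. Depth is unknown, and with it the precision of low values such as those of Tuba1a.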
